A study of Mus musculus with 25 samples.

Results

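Srebf1 and Agbl3 are the mouse genes at whose start sites a TCF-1 site of the DN3 cell line carried SMC1, NIPBL and H3K27ac peaks in every empty vector list and in no knockout list. They are 2 of 21887 protein-coding genes, and their sites are 2 of 3107 TCF-1 sites. A TCF-1 site here is a merged peak present in both TCF-1 lists of the DN3 line, and "empty vector only" means held by both empty vector lists and by no knockout list of an antibody. The genes were thus chosen by the peak calls of SMC1, NIPBL and H3K27ac in DN3 cells at TCF-1 sites. The DN3 values of these antibodies and of TCF-1, at the sites and around them, are therefore given as a description, with no test.

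The study asked how TCF-1, the T lineage transcription factor encoded by Tcf7, acts on the folding of the genome, and deposited 25 lists of peaks from chromatin immunoprecipitation. Scid.adh, a thymic lymphoma line used as a model of the DN3 stage of T cell development, held either an empty vector or the TCF-1 knockout (18 lists). The control cells are called wild type in the sample titles and empty vector in the treatment label, and the second name is used here. Both conditions had 2 lists each for CTCF, SMC1, NIPBL and H3K27ac, and the empty vector cells had 2 for TCF-1. NIH-3T3, a fibroblast line that was either untreated or induced to express TCF-1, gave 7 lists: 2 per condition for CTCF, 1 per condition for SMC1 and 1 for TCF-1 in induced cells. The labels do not say how TCF-1 was knocked out or induced, how many clones the knockout line comes from, or whether lists of a pair came from separate cultures. A clone and the knockout therefore cannot be told apart, and the spread between lists may be technical. Loss of the protein was not checked, since TCF-1 peaks were analysed here only for empty vector and induced cells.

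Srebf1 encodes SREBP-1, a membrane-bound transcription factor that is cut and released when sterols run low and that switches on genes of fatty acid and sterol synthesis; the gene has alternative promoters that give isoforms with different first exons. Agbl3 encodes a cytosolic carboxypeptidase that trims glutamate chains from tubulin tails. Cohesin, the ring that holds SMC1, extrudes chromatin loops, NIPBL loads it and drives the extrusion, CTCF halts it at loop ends, and H3K27ac marks active promoters and enhancers.

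All coordinates are on mm10 (GRCm38). Srebf1 lies at chr11:60199084-60224186 on the minus strand. The RefSeq promoter table gave it 3 starts, at 60222581 (the most upstream), at 60220627 and at 60210471 (the most downstream). The Srebf1 site without calls in the knockout, chr11:60210281-60210619, was 339 bp wide, and its centre was 21 bp from the most downstream start. Agbl3 lies at chr6:34780432-34860939 on the plus strand with 1 start in the table, at 34780432. Its site, chr6:34780152-34781065, was 914 bp wide and centred 176 bp from that start. The median TCF-1 site was 467 bp wide: 78.6% of sites were wider than the Srebf1 site and 8.43% wider than the Agbl3 site. Both sites overlapped a RefSeq promoter, as did 57.6% of the TCF-1 sites. Each gene also had a neighbouring TCF-1 site at which peaks were retained in the knockout. For Srebf1 it was chr11:60222644-60223187 at the most upstream start, 12.5 kb from the downstream site. For Agbl3 it was chr6:34877836-34878211 at the start of Cyren, a regulator of DNA end joining, 97.4 kb away.

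The promoters at these 4 sites are printed because they let the sequences under the lost and the retained calls be compared. Each runs 5′ to 3′ on the gene's strand over 300 bases (250 before the start and 50 from it on), from the RefSeq promoters of GRCm38.p6, and capitals mark bases that lie inside the TCF-1 peaks of both DN3 lists.
Srebf1 downstream start, minus strand, chr11:60210422-60210721, calls absent in the knockout: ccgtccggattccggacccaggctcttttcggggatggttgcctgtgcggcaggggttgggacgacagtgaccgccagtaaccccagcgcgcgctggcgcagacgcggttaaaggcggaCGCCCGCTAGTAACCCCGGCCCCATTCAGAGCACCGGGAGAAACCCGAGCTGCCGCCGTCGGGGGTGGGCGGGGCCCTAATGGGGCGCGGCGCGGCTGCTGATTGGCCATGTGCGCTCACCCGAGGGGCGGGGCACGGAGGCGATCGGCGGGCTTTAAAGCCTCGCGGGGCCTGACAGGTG
Agbl3 start, plus strand, chr6:34780182-34780481, calls absent in the knockout: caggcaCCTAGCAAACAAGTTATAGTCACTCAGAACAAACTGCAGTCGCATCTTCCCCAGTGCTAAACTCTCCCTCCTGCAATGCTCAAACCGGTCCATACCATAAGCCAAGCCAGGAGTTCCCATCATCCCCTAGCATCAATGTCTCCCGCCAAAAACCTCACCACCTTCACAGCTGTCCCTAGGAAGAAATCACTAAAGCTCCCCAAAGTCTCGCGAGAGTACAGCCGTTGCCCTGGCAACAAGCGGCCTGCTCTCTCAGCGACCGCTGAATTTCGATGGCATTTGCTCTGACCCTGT
Srebf1 upstream start, minus strand, chr11:60222532-60222831, calls retained: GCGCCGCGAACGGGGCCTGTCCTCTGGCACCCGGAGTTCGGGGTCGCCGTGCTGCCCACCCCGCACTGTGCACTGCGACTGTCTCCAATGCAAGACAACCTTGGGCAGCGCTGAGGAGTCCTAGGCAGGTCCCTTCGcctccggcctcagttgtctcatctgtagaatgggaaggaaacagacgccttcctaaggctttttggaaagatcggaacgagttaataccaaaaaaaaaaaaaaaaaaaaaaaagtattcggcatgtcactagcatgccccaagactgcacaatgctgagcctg
Cyren start, minus strand, chr6:34878016-34878315, calls retained: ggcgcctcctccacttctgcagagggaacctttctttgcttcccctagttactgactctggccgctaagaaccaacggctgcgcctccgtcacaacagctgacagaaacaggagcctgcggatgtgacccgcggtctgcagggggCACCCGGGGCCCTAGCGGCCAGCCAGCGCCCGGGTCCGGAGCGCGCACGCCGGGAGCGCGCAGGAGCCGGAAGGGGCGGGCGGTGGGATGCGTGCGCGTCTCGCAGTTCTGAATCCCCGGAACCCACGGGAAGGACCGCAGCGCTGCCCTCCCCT

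In these windows, TCF-1 peaks of both lists covered 181 bases of the downstream Srebf1 promoter, 294 of the Agbl3 promoter, 137 of the upstream Srebf1 promoter and 155 of the Cyren promoter. The middle Srebf1 promoter, chr11:60220578-60220877, had 0 such bases. The sequences differed in composition. GC content was 70.7% at the downstream Srebf1 start with 36 CG dinucleotides, 52.7% at Agbl3 with 10, 54.3% at the upstream Srebf1 start with 17, and 69.0% at Cyren with 30. The medians over 32851 RefSeq promoters were 52.7% and 7.

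Motifs were searched on both strands of the same 300 bases. The TCF/LEF core CTTTGA, present in 16.0% of all promoters, was in none of the promoters of Srebf1 (3 starts), Agbl3 and Cyren. The same was true of the sterol response element TCACNCCAC (1.24% of promoters), the E-box CACGTG (7.15%) and the CTCF core motif (3.43%). The Wdr91 promoter, also in the Agbl3 window, held 1 sterol response element on the opposite strand, 93 bases before the start. The letters were thus not in the Srebf1, Agbl3 and Cyren windows, which hold only part of the TCF-1 sites. Only these exact letters were searched, so variants were missed and the promoters cannot be said to lack such elements. The downstream Srebf1 promoter holds CATGTG and TCACCCGAG, which resemble the E-box and sterol response letters and were not counted. A further 3 motifs were chosen after the sequences had been read. The downstream Srebf1 promoter held a CCAAT box (CCAAT, in 37.4% of promoters) on the opposite strand, 30 bases before the start, and 2 GC boxes (GGGCGG, in 35.7%), 65 and 6 bases before it. The Agbl3 promoter held the palindrome TCTCGCGAGA (in 0.466%) 39 bases before the start. The upstream Srebf1 promoter held a CCAAT box and the Cyren promoter 2 GC boxes, and no motif searched was shared by the Srebf1 downstream and Agbl3 promoters.

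At the downstream Srebf1 start, TCF-1 peaks were chr11:60210281-60210602 in list 1 and chr11:60210285-60210619 in list 2, ranked 2450 of 4978 and 2294 of 5356 by width. Peaks of the 3-column lists carry no strength, so width ranks them within a list. SMC1 peaks at the site were 353 and 646 bp wide in the empty vector lists, in the top 59.0% and 20% of their lists by width. In the knockout no SMC1 peak touched the site, and the nearest lay 600 bp away in list 1 and 9252 bp away in list 2. NIPBL peaks of 186 and 199 bp had −log10 q-values of 1.45 and 3.14 (the authors' values), which put them in the top 92.0% and 56.9% of their lists. The lowest −log10 q-value in either of these lists was 1.01, so the NIPBL peak of empty vector list 1 lay near the authors' threshold. Knockout NIPBL peaks came no closer than 9679 and 9727 bp. H3K27ac formed a broad domain of 6196 bp in empty vector list 1 and 3371 bp in list 2, with −log10 q-values of 9.33 and 10.15 (top 32.3% and 28.5%). In the knockout lists the nearest H3K27ac peaks were 8320 and 7958 bp away. A stretch of 137 bp, chr11:60210431-60210567, lay inside the empty vector peaks of all 4 of these antibodies in all 8 lists.

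At the Agbl3 start the TCF-1 peaks were wider, 812 and 914 bp, and ranked 270 of 4978 and 169 of 5356. In empty vector list 1 SMC1 was called as 2 short peaks (chr6:34780214-34780527 and chr6:34780705-34781039), in the top 69.1% and 63.7% by width. In list 2 it was called as 1 peak of 880 bp, in the top 10.6% by width. The nearest knockout SMC1 peaks were 1744 and 1662 bp away. NIPBL peaks of 721 and 645 bp had −log10 q-values of 2.47 and 4.03 in the empty vector lists (top 57.8% and 45.6%). H3K27ac peaks of 1416 and 1389 bp had −log10 q-values of 36.11 and 36.14 (top 15.4% and 14.1%). No knockout NIPBL peak lay within 81462 bp in list 1 or 96759 bp in list 2, and the nearest knockout H3K27ac peaks were 80781 and 80659 bp away, beyond the end of the gene. The NIPBL calls were below the median of their list at both genes in empty vector list 1 (median −log10 q-value 2.75), whereas in list 2 (median 3.65) the Srebf1 call was below it and the Agbl3 call above it. The H3K27ac call at Agbl3 stood far above the median of both empty vector lists (3.76 and 3.44).

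CTCF, which did not enter the choice of the sites, had no peak at either of them in any of the 4 DN3 lists, as at 24.9% of the TCF-1 sites. At Srebf1 the nearest CTCF peaks were 10024 and 599 bp away in the empty vector lists and 10046 and 9734 bp in the knockout lists. The peak at 599 bp was a 209 bp region present in empty vector list 2 alone. At Agbl3 a CTCF region, chr6:34777973-34778436, was held by all 4 lists at gaps of 1715 to 1808 bp from the site. SMC1 was also called at this CTCF region in empty vector list 2 and in both knockout lists.

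**Figure D1:**
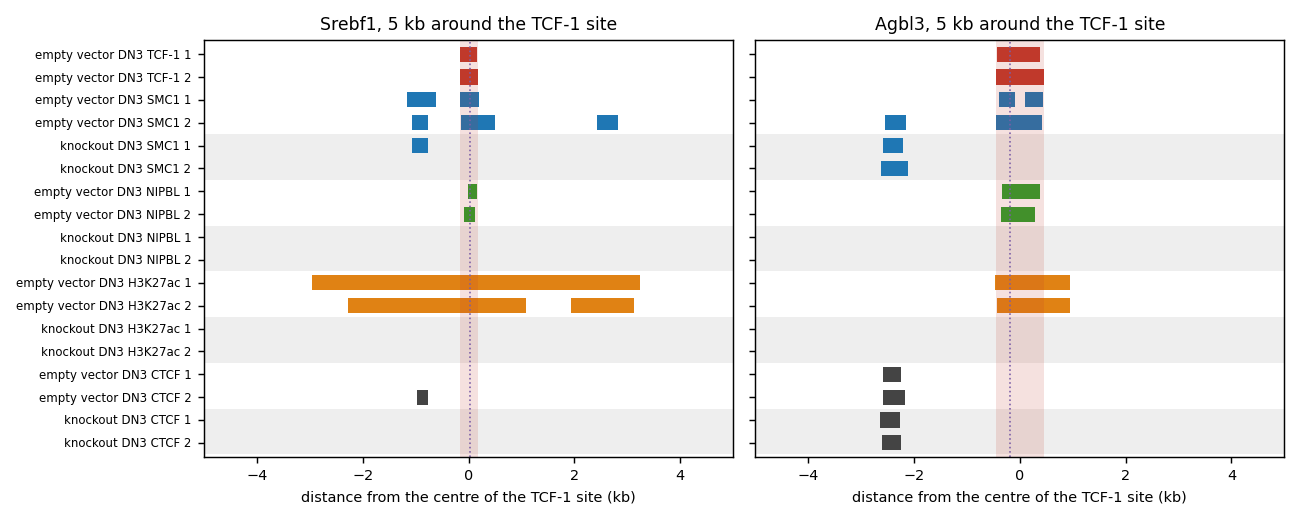
Peaks within 5 kb of the centre of the TCF-1 site at Srebf1 (left) and Agbl3 (right), 1 row per DN3 list, with distance in kb on the x axis; grey rows are knockout lists, the shaded band is the TCF-1 site and the dotted line a RefSeq start. SMC1, NIPBL and H3K27ac bars cross the band in empty vector rows and in no knockout row, and no CTCF bar crosses it.

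Such sites were few. Calls that were empty vector only overlapped 0.386% of the 3107 TCF-1 sites for SMC1 (12 sites), 0.0966% for NIPBL (3), 0.257% for H3K27ac (8) and 1.35% for CTCF (42). All of the 3 calls that chose the genes were present at 0.0644% of sites, which is the share the choice itself fixes. The count of 2 such sites was 0 once the weaker peaks of each list, below its median, were left out, and 1 (Agbl3) when peaks up to 500 bp apart were merged. In the other direction, knockout-only calls overlapped 0 TCF-1 sites for SMC1, 50 for NIPBL (1.61%), 7 for H3K27ac (0.225%) and 53 for CTCF (1.71%). Merged regions held by every DN3 list overlapped 42.2% of TCF-1 sites for CTCF, 72.3% for NIPBL, 96.7% for H3K27ac and 98.0% for SMC1. A list counted there through any peak in the merged region, so its own peak need not touch the site. Just outside the choice, 1 site had 2 of the 3 calls: chr3:131105919-131106271, 4025 bp from Lef1, which encodes the closest relative of TCF-1. SMC1 peaks there were 323 and 528 bp wide and H3K27ac peaks had −log10 q-values of 12.02 and 13.73 in the empty vector lists, none touched it in the knockout lists, and no NIPBL list of either condition had a peak within 3582 bp. A further 15 sites had 1 call (9 SMC1, 5 H3K27ac, 1 NIPBL) and 3089 had 0. At the Srebf1 and Lef1 sites, which lay 21 bp from a start and outside the gene body respectively, the TCF-1 peaks had similar width ranks (2450 and 2294 against 2210 and 2071), while the Agbl3 peaks were far wider.

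The neighbouring TCF-1 sites in the same windows kept all calls. At the upstream Srebf1 start, CTCF, SMC1, NIPBL and H3K27ac peaks were present in every DN3 list. CTCF peaks were 459 and 566 bp wide with the empty vector and 597 and 537 bp in the knockout. SMC1 peaks there were 846 and 883 bp against 874 and 974 bp. The H3K27ac peak had −log10 q-values of 44.64 and 48.95 with the empty vector and of 23.84 and 36.31 in the knockout. Its ranks were 4697 of 38827 and 4133 of 42180 against 8132 of 36544 and 5623 of 37629. NIPBL ranked 5771 of 9206 and 6041 of 15232 against 2740 of 23951 and 9657 of 14107, so the knockout lists lay on either side of the empty vector lists. The 300 bases of the middle Srebf1 promoter had no TCF-1 peak in DN3 cells but had SMC1 and H3K27ac peaks in every DN3 list. CTCF and NIPBL peaks overlapped these bases in 1 list of each condition. A NIPBL peak of knockout list 2 lay 2 bp outside them.

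At the Cyren start the same pattern held, with CTCF, SMC1, NIPBL and H3K27ac peaks in all DN3 lists. H3K27ac had −log10 q-values of 37.93 and 40.04 in the empty vector lists against 31.16 and 29.54 in the knockout lists. Within their own lists these were in the top 14.7% and 12.6% against 18.5% and 18.1%. NIPBL had 1.93 and 5.11 against 10.59 and 4.43, in the top 74.7% and 35.0% against 20.9% and 31.5%. The H3K27ac value of the Agbl3 start (36.11 and 36.14) had been close to that of the Cyren start in the same empty vector lists. A further TCF-1 peak at the start of Wdr91, an endosome factor, was in TCF-1 list 2 alone (chr6:34910661-34910868), with CTCF, SMC1 and H3K27ac peaks in every DN3 list.

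Coverage was next compared over the gene body plus 50 kb on both sides. The Srebf1 window (125103 bp) holds parts of Tom1l2, an endosomal sorting factor 2528 bp from the gene, and of Rai1, a chromatin-associated regulator whose body overlaps Srebf1, and all of Gm38501, Mir6921 and Mir6922. Its SMC1 peaks covered 6953 and 8362 bp in the empty vector lists and 10683 and 10740 bp in the knockout lists, a difference of means of -3054 bp. Both empty vector lists were below both knockout lists, as in 65.6% of all genes' windows, so the order at Srebf1 is that of most genes. The knockout SMC1 lists also held more peaks (88886 and 96416 against 70438 and 77587), and with lists cut to equal length the difference was -2559 bp. Of its SMC1 regions, 10 were in every list, 1 was empty vector only (8.27% of windows had at least 1), 3 were knockout only (46.3% had at least 1) and 9 were mixed. The empty-vector-only region is the call that chose the gene, so its presence was fixed. The knockout-only regions were chr11:60198050-60198880 at the end of Rai1 and chr11:60235409-60235813 and chr11:60272564-60272877 in Tom1l2.

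NIPBL peaks covered 390 and 994 bp of the Srebf1 window for the empty vector, against 3856 and 535 bp for the knockout, so the groups overlapped. Without knockout list 1, which was the longest NIPBL list (23951 peaks against 9206 to 15232 in the others), the difference of means changed from -1503.5 to 157 bp. The window held 1 empty-vector-only NIPBL region (0.882% of windows had at least 1) and 0 knockout-only regions (12.5%). The empty-vector-only region is the call that chose the gene, so its presence was fixed. H3K27ac peaks covered 29969 and 28995 bp against 29906 and 27531 bp, which also overlapped. There was 1 empty-vector-only region (20.4%), again the call that chose the gene. The 1 knockout-only region (13.5%) was chr11:60273626-60274724 in Tom1l2. Within 10 kb of the gene body alone the H3K27ac difference was 4865 bp, against 763.5 bp over the 50 kb window. The H3K27ac region that chose the gene, absent from the knockout by the choice, adds to both values. CTCF covered 2852 and 3446 bp with the empty vector (mean 3149 ± 420, SD, n = 2) and 4286 and 3235 bp in the knockout (3760.5 ± 743). The groups overlapped, with a difference of -611.5 bp (two-sided exact permutation test, p = 0.667, the smallest possible p with 2 lists against 2 being 0.333). Leaving out 1 list moved it to between -1137 bp (without knockout list 2) and -86 bp (without knockout list 1). Its 10 CTCF regions were in every list (6) or mixed (4), with 0 empty-vector-only (3.63% of windows had at least 1) and 0 knockout-only regions (30.2%).

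**Figure D2:**
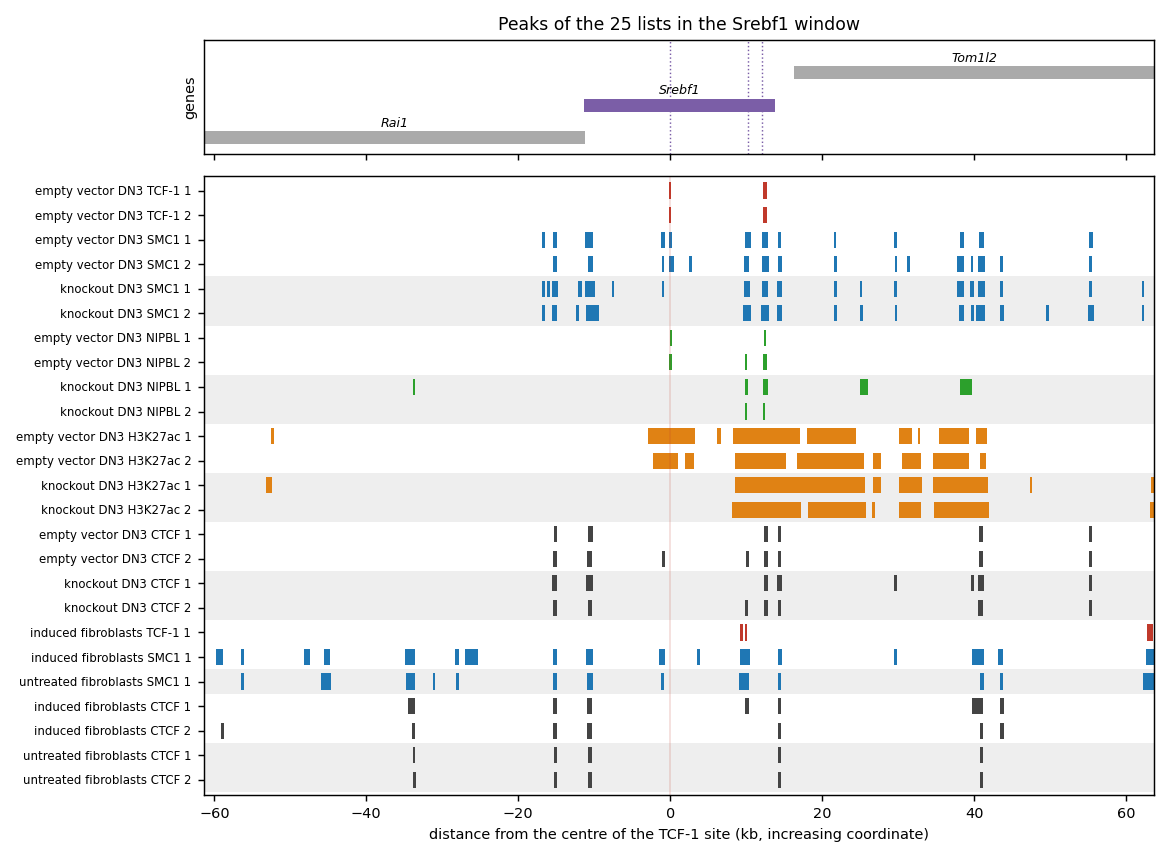
Peaks of all 25 lists over Srebf1 and 50 kb on both sides, with distance from the centre of the downstream TCF-1 site in kb on the x axis, 1 row per list, and gene bodies in the upper panel with dotted lines at the RefSeq starts. The bars at 0 kb appear in the empty vector rows of TCF-1, SMC1, NIPBL and H3K27ac, while those at 12.5 kb appear in every DN3 row.

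The Agbl3 window (180508 bp) holds Cyren, Tmem140, Wdr91, Gm13864, Gm46957, and parts of Gm38787 and of Cald1, the gene of the actin-binding protein caldesmon. SMC1 peaks covered 4423 and 5578 bp with the empty vector and 5321 and 5759 bp in the knockout, which overlapped. Of its SMC1 regions, 7 were in every list, 1 was empty vector only (8.27% of windows had at least 1) and 3 were mixed. Knockout-only SMC1 regions numbered 0 (46.3% had at least 1). NIPBL peaks covered 973 and 1476 bp against 1642 and 320 bp, with the knockout lists above and below both others. There was 1 empty-vector-only NIPBL region (0.882% of windows had at least 1). The empty-vector-only regions of SMC1, NIPBL and H3K27ac in this window are the calls that chose the gene, so their presence was fixed. H3K27ac peaks covered 16442 and 16344 bp against 16268 and 15645 bp. Both empty vector lists were higher, as in 25.9% of windows, by 436.5 bp on average, which is less than the width of the peak absent from the knockout. Within 10 kb of the gene body that difference was 1653.5 bp. Over the 50 kb window it was 125 bp without knockout list 2 and 748 bp without knockout list 1. The H3K27ac region that chose the gene, absent from the knockout by the choice, adds to each of these values. The window's other 4 H3K27ac regions, at Tmem140, Cyren and Wdr91, were in every list. CTCF covered 2859 and 3236 bp (mean 3047.5 ± 267, SD, n = 2) with the empty vector and 3520 and 3540 bp (3530 ± 14.1) in the knockout. Both empty vector lists were lower, as in 39.0% of windows, and the exact permutation test gave its smallest possible value (two-sided p = 0.333). The difference of -482.5 bp was -294 bp without empty vector list 1. All 7 CTCF regions of the window were in every DN3 list, so the difference was one of peak width. Within 10 kb of the gene body the signs turned, to 10.5 bp for CTCF and 428 bp for SMC1 (higher with the empty vector). The SMC1 value includes the peaks that chose the gene.

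**Figure D3:**
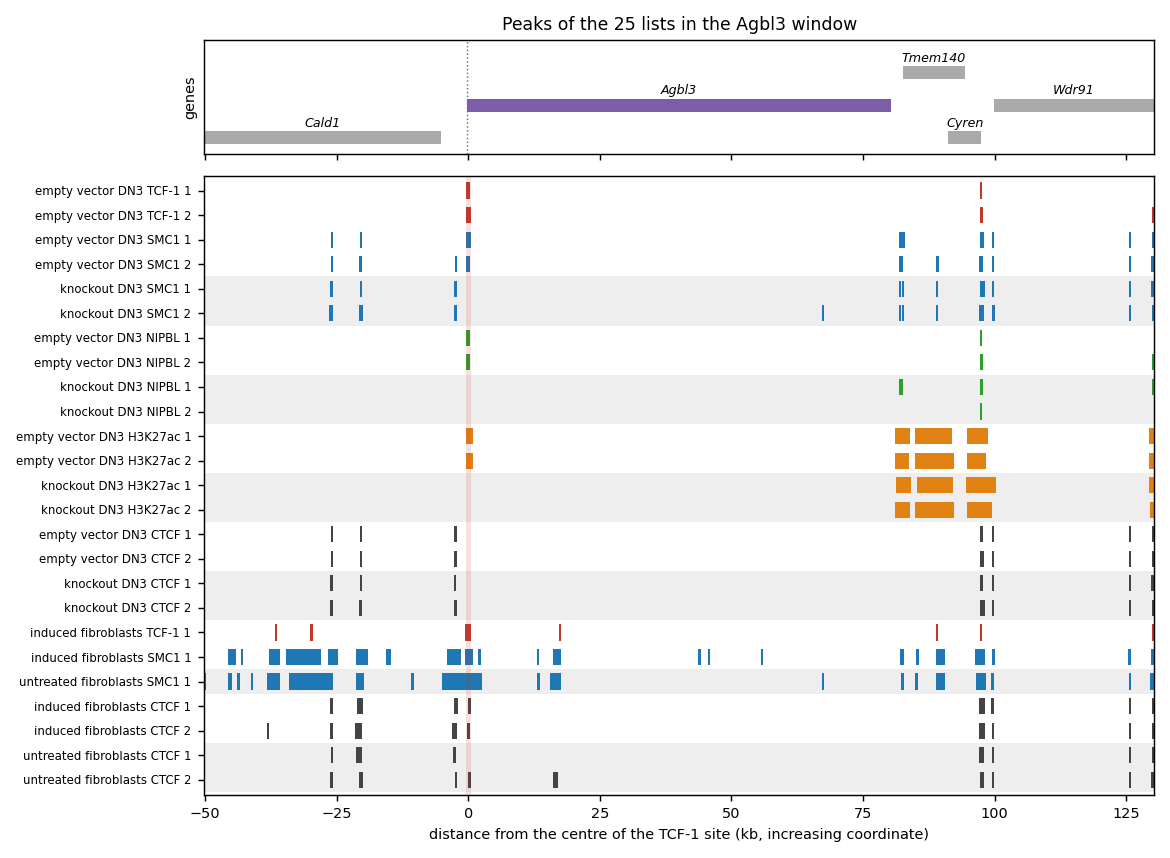
Peaks of all 25 lists over Agbl3 and 50 kb on both sides, with distance from the centre of its TCF-1 site in kb on the x axis, 1 row per list, and gene bodies in the upper panel. H3K27ac bars of the knockout lists begin about 81 kb from the site, and the Agbl3 body has none between.

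**Figure D4:**
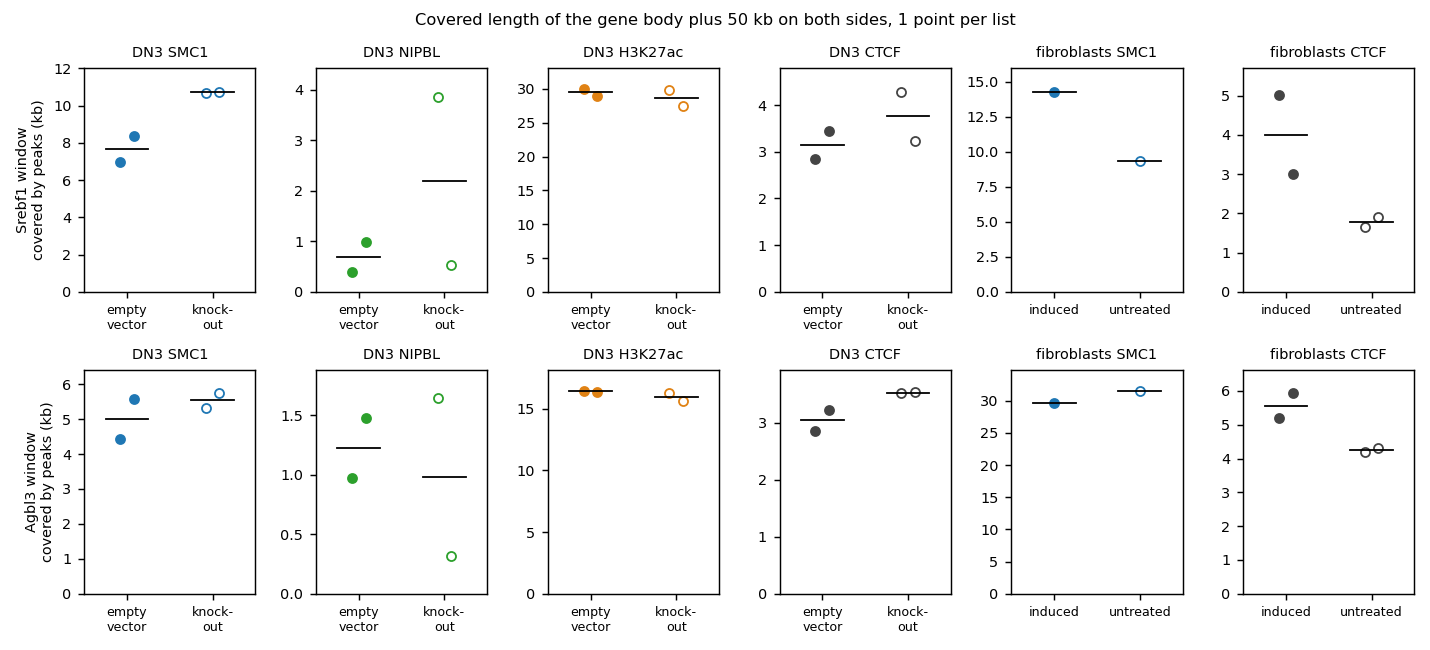
Length of each window covered by peaks, in kb from 0, with 1 point per list and a bar at the mean; the upper row is Srebf1 and the lower row Agbl3, filled points are lists with TCF-1 and open points lists without. For Srebf1 SMC1 the DN3 points with TCF-1 (6953 and 8362 bp) lie below those without (10683 and 10740 bp), and in fibroblasts the single point with TCF-1 (14282 bp) lies above that without (9335 bp).

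The genes differed in the fibroblasts. At the downstream Srebf1 start none of the 7 fibroblast lists had a peak: the nearest TCF-1 peak was 9062 bp away and the nearest SMC1 peaks were 604 bp (untreated) and 506 bp (induced) away. The TCF-1 peak of induced fibroblasts instead overlapped the middle Srebf1 promoter (chr11:60220238-60220619), where SMC1 peaks were 1317 bp wide untreated and 1296 bp induced. At the Agbl3 start, TCF-1 of induced fibroblasts gave a peak at chr6:34780028-34781199, ranked 700 of 39489, as at 77.8% of DN3 TCF-1 sites. SMC1 covered the same site in untreated fibroblasts, which carry no induced TCF-1, with a peak of 7682 bp (rank 353 of 105033), and in induced cells with a peak of 1427 bp (rank 19044 of 95293). With 1 list per condition this difference in width has no replicate check. CTCF was called there in both induced lists (354 and 646 bp) and in untreated list 2 (252 bp), but not in untreated list 1. An SMC1 peak at the Agbl3 site was therefore called in fibroblasts without induction of TCF-1, and none was called there in the DN3 knockout lists.

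Over the windows, fibroblast CTCF covered 5015 and 2998 bp at Srebf1 in induced cells (mean 4006.5 ± 1426, SD, n = 2) and 1651 and 1902 bp in untreated cells (1776.5 ± 177.5). Leaving out 1 list moved the Srebf1 difference of 2230 bp to between 1221.5 bp (without induced list 1) and 3238.5 bp (without induced list 2). At Agbl3 it covered 5200 and 5931 bp against 4186 and 4322 bp. Induced lists were higher at both genes, as in 83.6% of windows, and the two-sided exact permutation p was 0.333 for each. Fibroblast SMC1 covered 14282 bp at Srebf1 in induced cells and 9335 bp untreated (induced higher in 36.6% of windows), and 29665 and 31533 bp at Agbl3 (induced lower in 51.0%). TCF-1 of induced fibroblasts had 3 peaks in the Srebf1 window and 7 in the Agbl3 window, where 75.5% of windows had at least 1. Each window held 2 of the DN3 TCF-1 sites, 1 of them required by the choice, and 30.7% of windows held at least 1.

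Coverage was also set against that of all protein-coding genes in the same list, as a percentile of the covered share of the window. For Srebf1 the DN3 order was H3K27ac at the 92.1 to 93.6 percentile over 4 lists, TCF-1 at 87.3 to 89.4, SMC1 at 81.4 to 84.4, CTCF at 69.4 to 76.8 and NIPBL at 48.1 to 76.6. The first 4 antibodies of this order did not overlap, while NIPBL and CTCF did. For Agbl3 TCF-1 stood highest at 88.1 and 91.1, followed by H3K27ac at 71.2 to 72.4. CTCF at 50 to 61.7, SMC1 at 51.3 to 58.2 and NIPBL at 37.7 to 65.7 overlapped each other. The choice required a TCF-1 site at each gene, so the TCF-1 percentiles of both genes are raised by it. Empty vector percentiles of SMC1, NIPBL and H3K27ac also include the calls that chose the genes. In DN3 SMC1 every list placed Srebf1 above Agbl3, while in fibroblast SMC1 Agbl3 stood higher, at 92.7 untreated and 90.2 induced against 63.0 and 79.4 for Srebf1. The correlation of the percentiles of Srebf1 and Agbl3 over the 25 lists was r = 0.21.

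The genes most like Srebf1 by Pearson's r over the 25 lists were Itpkb, an inositol phosphate kinase (0.89), Atxn10 (0.88), Vps8 (0.87), Xrra1 (0.86) and Snx29 (0.86). Most like Agbl3 were Pam, a peptide-amidating enzyme (0.85), Dnah3, a dynein heavy chain (0.83), Frk, a tyrosine kinase (0.82), Rai14 (0.82) and Adgra2 (0.81). Lists of an antibody resemble each other, so these correlations rest on fewer than 25 independent points, and they are given as a description. With Spearman's rho, 3 of the 5 Srebf1 neighbours (Snx29, Vps8 and Xrra1) and 2 of the 5 Agbl3 neighbours (Frk and Pam) were again among the 5 highest.

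Genes of the SREBP pathway were then counted by the same regions, over 41 genes including Srebf1. H3K27ac regions that were empty vector only lay in the windows of 15 genes (36.6%, against 20.4% of all genes) and knockout-only ones in 7 (17.1% against 13.5%). For SMC1 the numbers were 7 (17.1% against 8.27%) and 27 (65.9% against 46.3%), for CTCF 2 (4.88% against 3.63%) and 17 (41.5% against 30.2%), and for NIPBL 1 (2.44% against 0.882%) and 10 (24.4% against 12.5%). A DN3 TCF-1 site was in 17 of the windows (41.5% against 30.7%), that of Srebf1 among them through the choice. The single gene with an empty-vector-only NIPBL region was Srebf1 itself. Srebf1 was also 1 of the 7 genes for SMC1 and 1 of the 15 for H3K27ac, through the calls that chose it. These empty-vector-only counts are thus raised by the choice itself. The median difference in SMC1 coverage was -1650 bp over the list and -834 bp over all genes, and that of H3K27ac 21.5 and 0 bp. Among the regulators, Srebf2, which encodes SREBP-2, had 2 empty-vector-only H3K27ac regions, 1 empty-vector-only and 4 knockout-only SMC1 regions, 1 knockout-only NIPBL region and no DN3 TCF-1 site. Mbtps1, the site-1 protease that cuts SREBPs, had 1 empty-vector-only H3K27ac and 1 empty-vector-only SMC1 region beside knockout-only regions of CTCF (1), SMC1 (1) and NIPBL (2), and 1 TCF-1 site. Among the targets, Sqle, squalene epoxidase, had 2 empty-vector-only H3K27ac regions and knockout-only regions of SMC1 (4), CTCF (2) and NIPBL (1). Mvk, mevalonate kinase, had 2 empty-vector-only and 9 knockout-only SMC1 regions beside knockout-only regions of CTCF (1) and NIPBL (1), and Me1, malic enzyme, had 1 empty-vector-only H3K27ac region and 1 knockout-only region for each of the other antibodies. Nr1h3, which encodes the LXRα receptor that activates Srebf1 transcription, had 1 knockout-only region each for CTCF, SMC1 and H3K27ac.

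Among genes of tubulin glutamylation and detyrosination, 20 of 21 were matched. H3K27ac regions that were empty vector only lay in the windows of 5 genes (25%, against 20.4% of all genes) and knockout-only ones in 6 (30.0% against 13.5%). For SMC1 the counts were 2 (10% against 8.27%) and 11 (55.0% against 46.3%), for CTCF 2 (10% against 3.63%) and 9 (45.0% against 30.2%), and for NIPBL 1 (5.0% against 0.882%) and 2 (10% against 12.5%). Here too the single empty-vector-only NIPBL region was that of the gene under study, Agbl3. Agbl3 was also 1 of the 2 genes for SMC1 and 1 of the 5 for H3K27ac, through the calls that chose it. These empty-vector-only counts are thus raised by the choice itself. Of the other carboxypeptidases of the family, Agbl2 had 1 empty-vector-only CTCF and 3 knockout-only SMC1 regions, and Agbl5 1 empty-vector-only CTCF, 1 knockout-only CTCF and 1 knockout-only H3K27ac region. Of the glutamate ligases, Ttll11 had 8 empty-vector-only H3K27ac, 7 knockout-only SMC1 and 3 knockout-only NIPBL regions, and Ttll4 had 1 empty-vector-only SMC1 and 1 empty-vector-only H3K27ac region beside knockout-only ones of CTCF and SMC1. TCF-1 sites were in 10 of the 20 windows (30.7% of all genes' windows held at least 1), that of Agbl3 among them through the choice.

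As a check of the DN3 label, H3K27ac peaks lay in the gene bodies of 11 of 12 thymocyte markers in every DN3 list. Of 6 fibroblast markers 1 (Pdgfrb) had such peaks in every list and 5 (Col1a1, Col1a2, Col3a1, Twist1 and Prrx1) in no list. The bases covered over the fibroblast markers were 10421 to 11185 with the empty vector and 19243 to 19969 in the knockout, and over the 4 B cell markers 469 to 788 against 0. Those of the thymocyte markers were 128744 to 137348 against 130736 to 135487, and of the 4 myeloid markers 7006 to 7565 against 6810 to 6833. The part of the shift at Pdgfrb in the results at Srebf1 and Agbl3 was not tested. H3K27ac lists of the fibroblasts were not analysed here, so that label was not checked in this way. At Tcf7, the gene targeted, H3K27ac covered 82431 and 82694 bp of the 50 kb window with the empty vector and 78391 and 81886 bp in the knockout.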

How the data were processed

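The series measured chromatin immunoprecipitation with sequencing in 25 samples of 2 mouse cell lines, crosslinked with 1% formaldehyde and sequenced as paired reads of 38 and 37 bp, per the labels' protocols. Bowtie2, MACS2, bedtools and mm10 are named in the submitters' processing notes. No source used here gives their versions, settings, control libraries or any pooling. Of the lists that the authors deposited, the 17 for SMC1, CTCF and TCF-1 held positions alone, in 3 columns. The 8 lists of NIPBL and H3K27ac had 9 columns, in which the authors deposited per peak a fold enrichment, a −log10 q-value, a −log10 p-value and a score. The −log10 q-value of column 9 was used to describe and rank peaks within its own list, and the score was not used. Read totals are not in the lists, so depth is unknown, no counting interval was made, and absence from a list means only that no peak was called. The lists differed in length (NIPBL 9206 to 23951 peaks, SMC1 in DN3 cells 70438 to 96416).

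For each antibody the DN3 lists were merged where peaks overlapped by at least 1 bp. Windows were the RefSeq gene body (GRCm38.p6) plus 50 kb. Covered length was compared with a two-sided exact permutation test for CTCF only, since SMC1, NIPBL and H3K27ac of DN3 cells chose the genes. The members, gene lists, motifs and markers were chosen with earlier results of these data known. Named genes were the 2 members, RefSeq genes in their windows, the nearest gene of any TCF-1 site with 2 or more of the 3 calls, the 5 protein-coding genes most like each member outside its window, and up to 12 genes per pathway list with such regions of 2 or more antibodies. Likeness was Pearson's r over 25 lists of the percentile, among all genes, of the covered share of the window. A planned motif search in whole TCF-1 sites was not run, since no genome sequence was used here.

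Alternatives were an overlap of 50%, a threshold at each list's median, equal list length, merging across 500 bp, sites in either TCF-1 list, windows of 10 kb, leaving out each list, a replicate block and Spearman's rho. A crossed pairing and 3 motifs were added after the data were seen. On simulated data the code recovered the planted class of 5000 of 5000 regions and the covered length of 500 of 500 windows. Computation used python 3.11.15, numpy 2.4.6, pandas 2.3.3, scipy 1.17.1 and matplotlib 3.10.9.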

Additional observations from a re-analysis of the deposited data

Results flagged for a closer look

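In the Srebf1 window SMC1 coverage differed in direction between the cell lines. In DN3 cells both lists with TCF-1 lay below both lists without it, with a difference of means of -3054 bp. In fibroblasts the single list with TCF-1 lay above the single list without it by 4947 bp. The difference between the lines was not tested, and the longer SMC1 lists were those of the knockout in DN3 cells and that of untreated cells in fibroblasts (105033 peaks against 95293).

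In the Agbl3 window CTCF coverage was lower with TCF-1 in each DN3 list, with a difference of means of -482.5 bp, and higher with TCF-1 in each fibroblast list, by 1311.5 bp. The difference between the lines was not tested. The CTCF lists were longer in induced than in untreated fibroblasts (68306 and 64645 against 38369 and 41236 peaks), and longer in the DN3 knockout than with the empty vector (62353 and 55149 against 42214 and 53729). The part of list length in these directions was not tested beyond equal list length, under which the values were -607 and 957 bp.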

How the results depend on the processing

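The count of 2 sites fell to 0 (of 1621 sites) at the stricter threshold. Under it the NIPBL peaks of both sites in empty vector list 1 (−log10 q-values of 1.45 and 2.47) fall below that list's median of 2.75. The SMC1 peaks of empty vector list 1 (353 bp at Srebf1, 314 and 335 bp at Agbl3) also fall below that list's median width of 394 bp. The count was 1, at Agbl3, when peaks were merged across 500 bp, since the Srebf1 SMC1 region then joins a mixed region at chr11:60209287-60209827. The count was 2 under the other alternatives run: 50% overlap, equal list length, sites in either list, and each list left out (lowest 2, highest 2). Taking sites in either list or leaving out a list loosens the rule, so a count below 2 was hardly possible there. The replicate block and the crossed pairing also gave 2. Both amount to the same rule as the main count, so they could not differ from it and are no check. Replicate numbers were not taken to pair the lists: deviations of same-numbered lists had correlations of -0.61 (DN3 CTCF), -0.73 (NIPBL), 0.04 (H3K27ac), 0.19 (SMC1) and -0.12 (fibroblast CTCF) over windows, from 2 pairs each. With the replicate block, CTCF differences of means are unchanged by construction, at -611.5 and 2230 bp for Srebf1 and -482.5 and 1311.5 bp for Agbl3. The exact p-values were 1, 0.5, 0.5 and 0.5.

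Differences in covered length, with minus without TCF-1, depended on the window. Within 10 kb they were, for Srebf1, -1268 bp (DN3 SMC1), 4865 bp (H3K27ac) and 646 bp (fibroblast SMC1), and for Agbl3, 10.5 bp (DN3 CTCF, reversed), 428 bp (DN3 SMC1, reversed), 1653.5 bp (H3K27ac) and -2980 bp (fibroblast SMC1). The stricter threshold gave -1946.5 bp for Srebf1 SMC1 and -83 bp for Agbl3 NIPBL (reversed), and equal list length 48 bp for Srebf1 NIPBL (reversed). Leaving out each list in turn gave, for Srebf1, -3758.5 to -2349.5 bp for SMC1, -3164 to 157 bp for NIPBL (157 bp without knockout list 1) and -424 to 1951 bp for H3K27ac (-424 bp without knockout list 2). For CTCF it gave -1137 to -86 bp (DN3) and 1221.5 to 3238.5 bp (fibroblasts) at Srebf1, and -671 to -294 bp and 946 to 1677 bp at Agbl3. For Agbl3 it gave -1117 to 38 bp for SMC1 (38 bp without empty vector list 1) and -417.5 to 904.5 bp for NIPBL (-8 bp without empty vector list 2, -417.5 bp without knockout list 2), and 125 to 748 bp for H3K27ac. In both window sizes the DN3 SMC1, NIPBL and H3K27ac differences include the empty-vector-only calls that chose the genes. The cause of the shifts between settings was not tested. Spearman's rho kept 3 of the 5 genes most like Srebf1 and 2 of the 5 most like Agbl3. In all, 84 of the alternative values were labelled the same, 10 moved and 9 changed sign. Counts and fibroblast SMC1 were labelled the same within 1.5 times, and the other untested coverages within the spread between lists. For CTCF the label rested on the exact p staying on the same side of 0.05, which so few lists cannot reach. A CTCF value could therefore only stay the same or change sign, whatever its size. Agbl3 fibroblast CTCF within 10 kb, at 113.5 against 1311.5 bp, was among the 84.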
